A study of Mus musculus with 6 samples.

Results

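The 44 genes described here mark macrophages, the resident phagocytes of tissues, or encode the receptors and effector proteins these cells use. They were taken by name from a deposited table of 54532 mouse genes, and all 44 were found in it. Expression was given as FPKM (fragments scaled to gene length and to library total), which is a level per length. The gene length in the table can exceed that of the principal coding transcript. It was 4946 against 1088 bases for Trem2, and 3238 bases for both in Adgre1. Levels of different genes can therefore be set side by side only roughly. Of the 44, 43 reached 1 FPKM in at least 3 of the 6 libraries and were tested among 12534 such genes. The scavenger receptor gene Marco did not.

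The study compared stromal cells of the Prx1 lineage with and without the transcription factor gene Zeb1, in the setting of cartilage and bone cell differentiation. The Zeb1Prx1 group (3 libraries) had the genotype Prx1-Cre+; ROSA-YFP; Zeb1fl/fl, and the WT group (3 libraries) was Prx1-Cre+; ROSA-YFP; Zeb1wt/wt, so that both groups carried the Cre driver and the reporter, and both were untreated. Cells grew out in culture from collagenase-treated chips of compact bone (femur and tibia), and those positive for the reporter were sorted and labelled Prx1+ MSCs. Prx1-Cre is active in limb mesenchyme, so that a floxed allele is altered in cells of that lineage, and a protein-coding gene can keep some transcript after recombination. The labels give no age of the mice and do not state that replicates are separate animals or cultures. The spread behind each p-value is thus that of these libraries and may be technical.

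Macrophages arise from blood-forming progenitors or embryonic precursors, under the transcription factor PU.1 and the growth factor receptor encoded by Csf1r. They take up dying cells, microbes and lipoproteins, and they sense their targets through Fc receptors, lectins and scavenger receptors. Many of these receptors signal through small adaptor proteins that carry an ITAM, a short tyrosine motif, while others carry the inhibitory counterpart, the ITIM. In bone, macrophages lie along the surfaces where osteoblasts work and share a progenitor with osteoclasts.

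The label of the gene set held in these libraries. Adgre1, which encodes the mouse macrophage marker F4/80, had at least 117 FPKM in each of the 6 libraries, and Csf1r and Cd68 had at least 252 and 248. The labelled stromal identity was present as well: of 20 genes of a Prx1-lineage stromal list, only Twist2 stayed under 1 FPKM in all 6 libraries, and Col1a1, the main collagen of bone, had 3368, 1560.3 and 2069 FPKM in Zeb1Prx1 and 1432, 1829 and 1792 FPKM in WT libraries. The libraries therefore held transcripts of both kinds of cell. In bulk RNA, fewer macrophages and less of a transcript per macrophage cannot be told apart.

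Facts of the whole series bear on what follows. Fragments assigned to genes numbered between 14724357 and 18354894 per library. Zeb1, the targeted gene, had 1.92, 1.59 and 2.84 FPKM in Zeb1Prx1 and 6.61, 10.3 and 7.12 FPKM in WT libraries, a log2 change of -1.53 (SE 0.22, limma adjusted p = 0.229). All 3 Zeb1Prx1 libraries were below all 3 WT libraries, in the direction of the labels. Zeb1Prx1 replicate 2 stood apart from the other libraries: its FPKM summed to 372566, against 278987 to 312038 in the other 5, and its difference from WT followed transcript length. The genotypes also differed in Xist, the transcript of the inactive X chromosome, with 1.47, 0.00309 and 12.6 FPKM in Zeb1Prx1 and 26.8, 40.4 and 32.9 FPKM in WT libraries, and the part of this difference in the results below was not tested.

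Promoter sequences are shown for genes whose values the account turns on. Of the 44 genes, 32 had a promoter window in the RefSeq table (build GRCm38.p6), which holds 250 bases before and 50 bases after the annotated start. The letters GAGGAA, known as the PU box for its recognition by PU.1, were searched on both strands. They occurred in the windows of 23 of the 32 macrophage genes (71.9%) and of 31.3% of all 27025 genes in the table. The longer GAGGAAGT, which contains GAGGAA, occurred in 4 of the 32 (12.5%), namely Cd53, C1qc, Fcgr4 and Pirb, and in 3.69% of all genes. A match is only a description of these letters and not a measured binding site. The next 3 lines give the 250 bases before the start, all from the minus strand, with GAGGAA or its reverse complement in capitals. They show one gene below WT in each mutant library (Cd68, chr11:69666171-69666420), one that was above WT in Zeb1Prx1 replicate 2 alone (C1qc, chr4:136892915-136893164) and one pan-leukocyte gene (Cd53, chr3:106790150-106790399).
Cd68: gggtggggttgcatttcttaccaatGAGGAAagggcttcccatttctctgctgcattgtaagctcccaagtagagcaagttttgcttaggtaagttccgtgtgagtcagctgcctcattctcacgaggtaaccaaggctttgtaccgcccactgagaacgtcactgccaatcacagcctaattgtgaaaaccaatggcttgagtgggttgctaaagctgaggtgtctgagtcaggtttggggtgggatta
C1qc: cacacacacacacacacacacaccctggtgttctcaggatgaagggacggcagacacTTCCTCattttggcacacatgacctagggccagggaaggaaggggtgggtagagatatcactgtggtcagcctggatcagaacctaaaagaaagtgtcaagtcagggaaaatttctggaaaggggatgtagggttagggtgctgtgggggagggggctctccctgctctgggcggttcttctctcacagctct
Cd53: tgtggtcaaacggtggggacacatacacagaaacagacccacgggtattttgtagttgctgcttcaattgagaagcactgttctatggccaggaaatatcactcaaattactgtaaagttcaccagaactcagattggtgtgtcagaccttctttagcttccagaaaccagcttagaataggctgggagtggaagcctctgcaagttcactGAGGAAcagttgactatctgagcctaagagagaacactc

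In these stretches the capitals lie 225 bases before the start in Cd68, 193 bases in C1qc and 39 bases in Cd53. Over the full 300 bases Cd68 and Cd53 have 2 matches each, so that 1 of each is not shown. The GAGGAAGT of Cd53 is not among the bases shown. Another pair of sequences bears on the highest and one of the lowest levels among the 44 genes. Lyz2 and Lyz1 are neighbouring lysozyme genes whose principal transcripts have 1211 identical bases of 1317 aligned (92.0%), and whose 250 bases before the start have 200 identical of 252 aligned (79.4%). Capitals mark the bases that differ in the alignment, for Lyz2 at chr10:117282273-117282522 and Lyz1 at chr10:117292869-117293118, both on the minus strand of GRCm38.p6 and from RefSeq.
Lyz2: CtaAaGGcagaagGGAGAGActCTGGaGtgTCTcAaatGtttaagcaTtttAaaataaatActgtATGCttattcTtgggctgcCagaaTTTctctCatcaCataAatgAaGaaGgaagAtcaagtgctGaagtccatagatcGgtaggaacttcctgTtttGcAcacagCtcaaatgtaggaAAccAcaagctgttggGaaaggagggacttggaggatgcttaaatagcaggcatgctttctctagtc
Lyz1: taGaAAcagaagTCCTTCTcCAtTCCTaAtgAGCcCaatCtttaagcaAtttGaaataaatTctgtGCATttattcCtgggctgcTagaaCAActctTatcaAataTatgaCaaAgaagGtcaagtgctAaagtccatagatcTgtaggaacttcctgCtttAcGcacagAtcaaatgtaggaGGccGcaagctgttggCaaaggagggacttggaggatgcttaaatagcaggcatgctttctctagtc

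Most macrophage genes had lower levels in Zeb1Prx1 than in WT libraries, yet none passed the test. Limma, fitted to log2(FPKM + 1) over 12534 genes, gave a log2 change below 0 for 38 of 43 genes, where 48.1% of all tested genes were below 0. The median log2 change was -0.30 for the 43 genes and 0.017 for all tested genes. At an adjusted p under 0.05, 0 of 43 were called lower and 0 were called higher, as for all genes (0.0% in either direction), and voom on recovered fragment numbers also called 0 of the 43. At an unadjusted p under 0.05, 10 of 43 were lower (6.98% of all genes) and 0 of 43 were higher (8.15% of all genes). The adjusted p ranged between 0.264 (Adgre1) and 0.984 (Trem2).

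The groups did not overlap for 14 of 43 genes, each Zeb1Prx1 library lying below each WT library, where 11.8% of all tested genes did so. These were Ptprc, Cd53, Laptm5, Plek, Adgre1, Cd68, Mpeg1, Csf1r, Cybb, Cd163, Clec7a, Sirpa, Cd84 and Cd86. Cd163 passed the filter through the WT libraries alone, which fixed its place here and its log2 change below 0 in advance. The opposite arrangement, each Zeb1Prx1 library above each WT library, held for 0 of 43 genes and for 12.6% of all genes. Fragments assigned to the 44 genes made up 2.96%, 4.59% and 2.71% of all assigned fragments in Zeb1Prx1 and 3.57%, 3.96% and 4.10% in WT libraries. Without Lyz2 and Apoe, the most abundant members, these shares were 1.38%, 1.53% and 1.17% in Zeb1Prx1 and 1.80%, 1.91% and 1.89% in WT libraries. The share of all 44 genes overlapped between the groups through Zeb1Prx1 replicate 2, and the share without those 2 genes did not overlap.

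**Figure D1:**
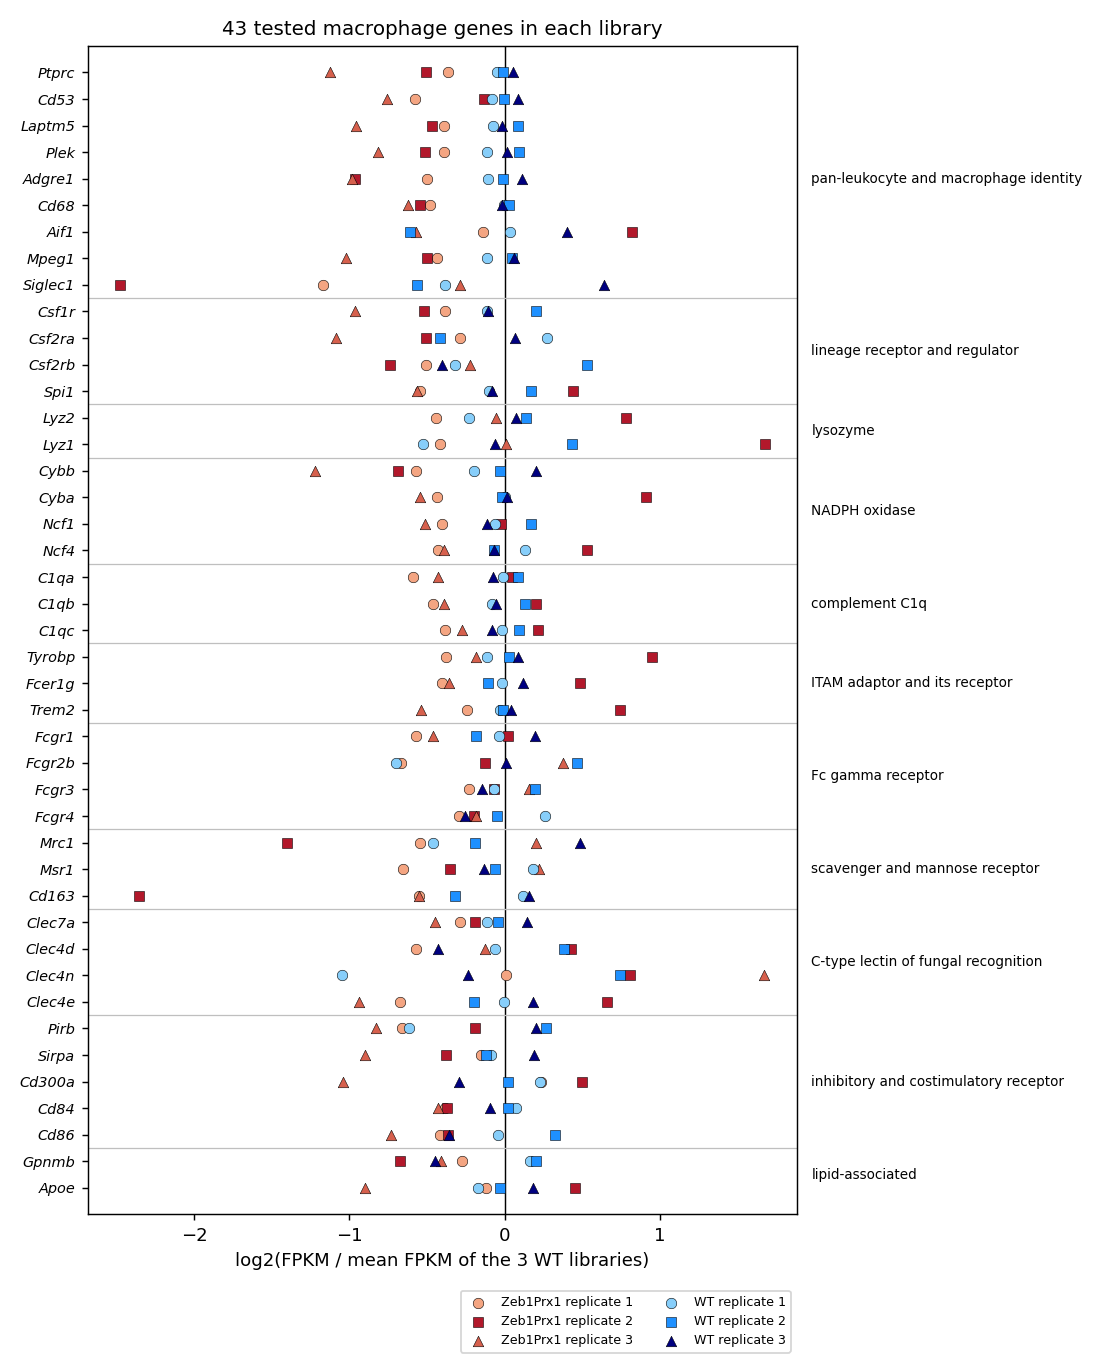
Log2 ratio of the FPKM in each library to the mean FPKM of the 3 WT libraries (horizontal axis), for the 43 tested macrophage genes ordered by role. Red symbols are Zeb1Prx1 and blue symbols WT libraries; the circles and triangles of Zeb1Prx1 replicates 1 and 3 lie mostly left of 0, while the squares of replicate 2 spread widely to both sides.

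Genes of pan-leukocyte and macrophage identity were the group with the clearest separation of the genotypes in the main fit. Transcript length differs between the groups, and their order was not tested apart from it. With the length trend removed from each library, the log2 change was -0.77 for Adgre1, -0.87 for Cd68 and -0.52 for Mpeg1 of this group. It was then -0.69 for C1qa and -0.61 for Fcer1g, short genes of other groups. In the main fit, the identity genes stood as follows. Of 9 tested, 8 had a log2 change below 0 (48.1% of all genes) and 7 did not overlap (11.8%), with a group median of -0.60. Adgre1 had 164, 119 and 117 FPKM in Zeb1Prx1 and 215, 230.0 and 250.4 FPKM in WT libraries. The highest mutant library lay below the lowest WT library. Its mean was 133 ± 26.4 FPKM in Zeb1Prx1 and 232 ± 17.8 FPKM in WT (SD, n = 3 each), a log2 change of -0.81 (SE 0.20, 95% interval -1.28 to -0.33, limma adjusted p = 0.264).

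Cd68, which encodes the lysosomal glycoprotein macrosialin, had 273, 261 and 248 FPKM in Zeb1Prx1 and 379.8, 389 and 377 FPKM in WT libraries. Libraries of 1 genotype lay close together, replicate 2 included, and the groups were well apart. The log2 change was -0.55 (SE 0.17, limma adjusted p = 0.278). Mpeg1, encoding the pore-forming protein perforin-2, was the most abundant of the group, with 334, 319 and 223 FPKM in Zeb1Prx1 and 417, 467 and 472 FPKM in WT libraries. These groups did not overlap either (log2 change -0.65, limma adjusted p = 0.296).

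The leukocyte phosphatase gene Ptprc (CD45), the tetraspanin gene Cd53, the lysosomal gene Laptm5 and the protein kinase C substrate gene Plek also lay below WT in all 3 mutant libraries, with log2 changes between -0.62 (Ptprc) and -0.48 (Cd53). None of these passed. Siglec1, the sialic acid receptor CD169, had 8.85, 3.59 and 16.3 FPKM in Zeb1Prx1 and 15.3, 13.5 and 31.1 FPKM in WT libraries. Its log2 change of -1.09 was the lowest of all 43 genes, but the groups overlapped and the interval reached 0.12 (limma adjusted p = 0.357). Replicate 2 was the lowest of the 6 libraries for it, and without that library the log2 change was -0.59. Aif1, encoding the actin-binding protein IBA1, was the exception in direction, with a log2 change of 0.091 and the highest level, 21.1 FPKM, in Zeb1Prx1 replicate 2.

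**Figure D2:**
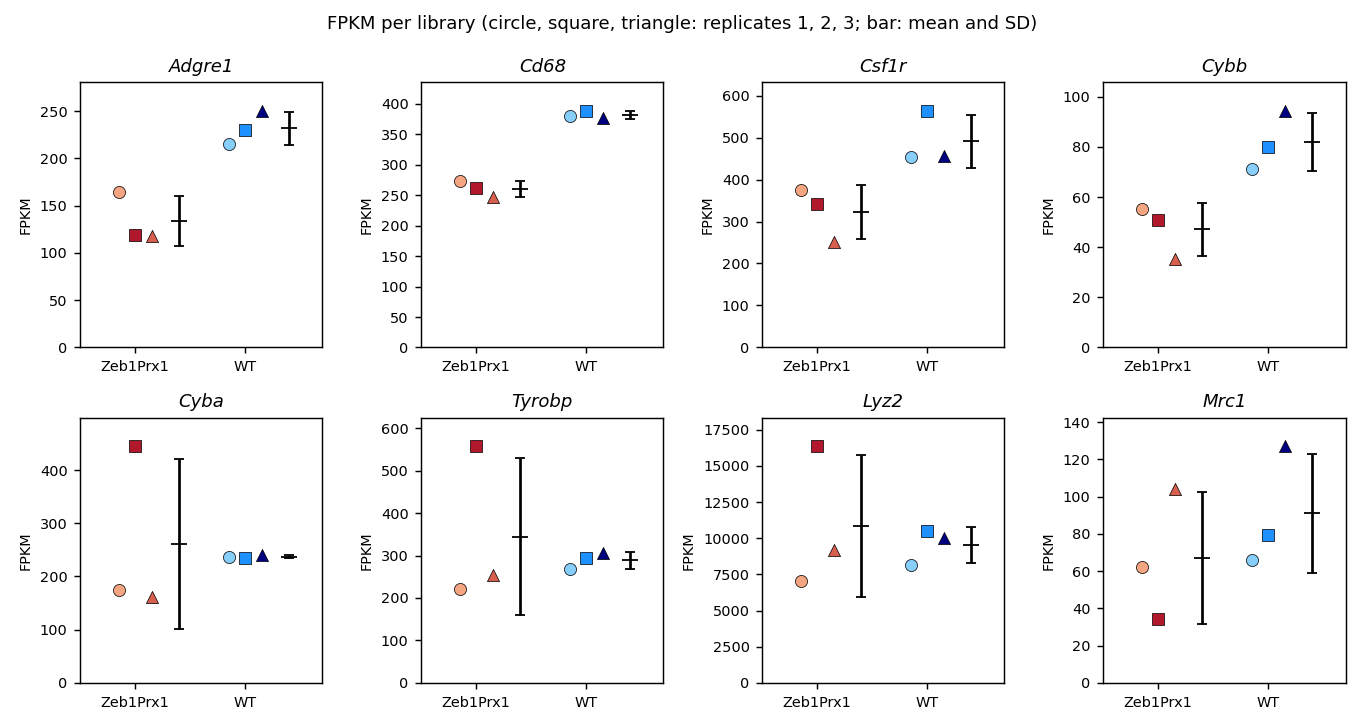
FPKM of 8 macrophage genes in each library, with Zeb1Prx1 left of WT and axes that start at 0. Bars show the mean and SD of 3 libraries; Adgre1, Cd68, Csf1r and Cybb do not overlap between the genotypes, while Cyba, Tyrobp and Lyz2 were highest in Zeb1Prx1 replicate 2 (square) and Mrc1 was lowest there.

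Lineage receptors and the lineage regulator had lower fitted levels throughout, 4 of 4 (48.1% of all genes), with a median log2 change of -0.50. Csf1r, the receptor of CSF1 and IL-34 on which macrophage survival depends, had 376, 342 and 252 FPKM in Zeb1Prx1 and 453, 564 and 456 FPKM in WT libraries. All mutant libraries were below all WT libraries (log2 change -0.61, SE 0.23, limma adjusted p = 0.308). The GM-CSF receptor chains Csf2ra and Csf2rb had log2 changes of -0.59 and -0.40 and overlapped between the groups.

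Spi1, which encodes PU.1, behaved differently among the mutant libraries and is described for that reason, after its values were seen. It had 64.5, 128 and 63.6 FPKM in Zeb1Prx1 and 87.5, 105 and 88.9 FPKM in WT libraries. Replicates 1 and 3 were below the WT range and replicate 2 was above it. The log2 change was -0.21 with all libraries and -0.54 without Zeb1Prx1 replicate 2 (limma adjusted p = 0.723 and 0.302).

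The lysozyme genes, whose product cleaves bacterial cell walls, showed no separation. Lyz2 ranked 2 among all genes of the table by mean level. It had 7034, 16368 and 9156 FPKM in Zeb1Prx1 and 8118, 10490.4 and 10017 FPKM in WT libraries. Replicate 1 was below the WT range, replicate 2 well above it and replicate 3 within it. The log2 change was 0.10 (SE 0.45, limma adjusted p = 0.917), and its sign turned to -0.069 after each library was rescaled to the same FPKM sum, which moved the median of all genes to -0.12 so that Lyz2 remained above that median, and to -0.24 without Zeb1Prx1 replicate 2.

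Lyz1 had 0.887, 3.78 and 1.19 FPKM in Zeb1Prx1 and 0.822, 1.60 and 1.13 FPKM in WT libraries. Its level was again highest in replicate 2, and the groups overlapped (log2 change 0.32, limma adjusted p = 0.659; -0.088 without Zeb1Prx1 replicate 2, 0.58 without replicate 1 and 0.20 without WT replicate 1). These values rest on 18, 86 and 23 fragments in Zeb1Prx1 and 19, 31 and 22 fragments in WT libraries. Of the 75-base windows of the Lyz1 transcript, 6.22% also occur in Lyz2, so that fragments of the abundant gene may have been counted for the rare one.

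The phagocyte NADPH oxidase makes superoxide in the phagosome, and its membrane part is a pair of proteins encoded by Cybb and Cyba. Cybb, the catalytic subunit, had 55.3, 51.0 and 35.2 FPKM in Zeb1Prx1 and 71.4, 80.2 and 94.4 FPKM in WT libraries. The groups did not overlap (log2 change -0.80, SE 0.22, limma adjusted p = 0.273). Cybb lies on the X chromosome, and the part of the Xist difference in this result was not tested.

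Cyba, the partner that stabilises it, had 175, 445 and 162 FPKM in Zeb1Prx1 and 237, 234 and 239 FPKM in WT libraries. Replicates 1 and 3 were below WT and replicate 2 above it, around a narrow WT range. The log2 change was -0.023 (SE 0.39, limma adjusted p = 0.978), and its sign turned without Zeb1Prx1 replicate 1 or 3. The ratio of Cyba to Cybb was 3.17, 8.72 and 4.60 in Zeb1Prx1 and 3.31, 2.92 and 2.54 in WT libraries, so the pair kept no common ratio in replicate 2. The cytosolic subunits Ncf1 (p47phox) and Ncf4 (p40phox) had log2 changes of -0.30 and -0.089 and were below the WT range in replicates 1 and 3. Ncf1 overlaps Gtf2ird2 on the opposite strand, at a mean of 3.35 FPKM, and the use of strand in counting is not given in the sources used here.

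The 3 chains of complement C1q, which binds immune complexes and dying cells, are encoded by neighbouring genes on chromosome 4, with C1qb at chr4:136880129-136886187, C1qc at chr4:136889804-136893065 and C1qa at chr4:136895917-136898803 (mm10, as deposited). They were among the most abundant of the 44 genes. C1qb had 861, 1363 and 901 FPKM in Zeb1Prx1 and 1121, 1295 and 1138 FPKM in WT libraries. C1qa had 517, 805 and 578 FPKM in Zeb1Prx1 and 771, 826 and 739 FPKM in WT libraries. For both, replicates 1 and 3 were below the WT range and replicate 2 was above it or within it, and neither passed (log2 changes -0.21 and -0.32, limma adjusted p = 0.701 and 0.518). Without Zeb1Prx1 replicate 2 the log2 changes were -0.42 for C1qb and -0.51 for C1qa, and without replicate 1 they were -0.093 and -0.19. That of C1qb was -0.13 without replicate 3.

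C1qc lay below WT in replicates 1 and 3 and above it in replicate 2 as well (log2 change -0.15). The 3 chains kept their proportions across all 6 libraries. The ratio of C1qa to C1qb was 0.600, 0.591 and 0.641 in Zeb1Prx1 and 0.688, 0.638 and 0.649 in WT libraries. The ratio of C1qc to C1qb was 0.401, 0.384 and 0.413 in Zeb1Prx1 and 0.398, 0.371 and 0.375 in WT libraries. Their principal transcripts are of like length, between 1040 and 1203 bases.

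The ITAM adaptors Tyrobp (DAP12) and Fcer1g (the Fc receptor gamma chain) pass signals from receptors that lack a signalling tail of their own. Tyrobp had 222, 558 and 254 FPKM in Zeb1Prx1 and 267, 294 and 306 FPKM in WT libraries. Replicates 1 and 3 were just below the WT range and replicate 2 was 1.93-fold the WT mean. The log2 change was 0.13 (SE 0.36, limma adjusted p = 0.865). Its sign turned to -0.039 with an equal FPKM sum (above the median of all genes), to -0.18 with quantile scaling and to -0.28 without Zeb1Prx1 replicate 2.

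Fcer1g had 299, 554 and 309.7 FPKM in Zeb1Prx1 and 391, 368 and 431 FPKM in WT libraries, with the mutant libraries in the same places relative to the WT range (log2 change -0.090, limma adjusted p = 0.884; above 0 without Zeb1Prx1 replicate 1 or 3). Trem2, a lipid-sensing receptor that signals through Tyrobp, had 67.2, 133 and 54.7 FPKM in Zeb1Prx1 and 77.9, 79.0 and 81.7 FPKM in WT libraries. All 3 genes of this group were thus below WT in mutant replicates 1 and 3 and above it in replicate 2. The ratio of Tyrobp to Csf1r was 0.591, 1.63 and 1.01 in Zeb1Prx1 and 0.591, 0.521 and 0.671 in WT libraries.

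The Fc gamma receptors bind IgG, and 3 of the 4 (Fcgr2b, Fcgr3 and Fcgr4) lie together on chromosome 1. All 4 had a log2 change below 0 (48.1% of all genes), with a median of -0.12. Of these, 0 were free of overlap (11.8% of all genes on the lower side and 12.6% on the higher side). Fcgr3, the most abundant, had 94.0, 105 and 123 FPKM in Zeb1Prx1 and 105, 126 and 99.5 FPKM in WT libraries. The groups covered nearly the same range (log2 change -0.042, 95% interval -0.48 to 0.39, limma adjusted p = 0.917), and the sign turned with library weights and without Zeb1Prx1 replicate 1 or WT replicate 2. Fcgr3 shares 7.38% of its 75-base windows with Fcgr2b, the inhibitory member. Fcgr1, the high-affinity receptor, had 22.9, 34.5 and 24.7 FPKM in Zeb1Prx1 and 33.2, 30.0 and 38.9 FPKM in WT libraries, with replicates 1 and 3 below the WT range and replicate 2 within it (log2 change -0.32, limma adjusted p = 0.438; -0.21 without Zeb1Prx1 replicate 1 and -0.49 without replicate 2).

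Scavenger and mannose receptors take up glycoproteins, modified lipoproteins and haemoglobin, and here replicate 2 was the lowest mutant library for Mrc1 and Cd163. Mrc1, the mannose receptor CD206, had 62.4, 34.4 and 104 FPKM in Zeb1Prx1 and 66.2, 79.6 and 127 FPKM in WT libraries. The groups overlapped through replicate 3 (log2 change -0.52, SE 0.43, limma adjusted p = 0.544; -0.11 without Zeb1Prx1 replicate 2, -0.90 without replicate 3 and -0.25 without WT replicate 3). Cd163, the haemoglobin scavenger receptor, had 0.991, 0.284 and 0.995 FPKM in Zeb1Prx1 and 1.58, 1.17 and 1.62 FPKM in WT libraries. The groups did not overlap at this low level (log2 change -0.51, limma adjusted p = 0.341), and replicate 2 rests on 28 fragments. Only the WT libraries reached 1 FPKM, so Cd163 passed the filter through WT alone. Its lack of overlap followed from that and is no separate result. The log2 change of Cd163 was -0.30 without Zeb1Prx1 replicate 2, -0.999 with a pseudocount of 0.1 and -1.17 with voom.

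Msr1, the class A scavenger receptor, had a log2 change of -0.24 and overlapped between the groups. Marco, a related receptor, was near the detection limit, with 6, 2 and 0 fragments in Zeb1Prx1 and 1, 4 and 0 fragments in WT libraries, or between 0 and 0.194 FPKM. Where no fragment was counted, in replicate 3 of each genotype, up to 3 fragments remain possible, which equals 0.102 FPKM in Zeb1Prx1 and 0.101 FPKM in WT. No fold is given for it. The ratio of Mrc1 to Adgre1 was 0.381, 0.289 and 0.888 in Zeb1Prx1 and 0.308, 0.346 and 0.508 in WT libraries, highest in replicate 3 of both genotypes.

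C-type lectins of fungal recognition held the only member with a large value on the higher side. Clec4n (Dectin-2), singled out after its values were seen, had 53.2, 92.3 and 168 FPKM in Zeb1Prx1 and 25.5, 88.0 and 44.8 FPKM in WT libraries. Replicates 2 and 3 were above the WT range and replicate 1 within it. The log2 change was 0.99 (SE 0.54, 95% interval -0.29 to 2.28, limma adjusted p = 0.393). Its neighbours on chromosome 6 did not share that order: Clec4d, which pairs with other lectins, had 114, 228 and 156 FPKM in Zeb1Prx1 and 162, 221 and 126 FPKM in WT libraries (log2 change -0.051; above 0 without Zeb1Prx1 replicate 1 or WT replicate 2), and Clec4e (Mincle) had a log2 change of -0.25.

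Clec7a (Dectin-1), the receptor for beta-glucan, had 4.67, 5.01 and 4.19 FPKM in Zeb1Prx1 and 5.28, 5.55 and 6.32 FPKM in WT libraries. The groups did not overlap, at a small difference (log2 change -0.26, limma adjusted p = 0.387). Clec7a was below WT in replicate 2 although its principal transcript is short, at 707 bases.

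Inhibitory and costimulatory receptors had log2 changes below 0 in 5 of 5 cases (48.1% of all genes), with a median of -0.38, and 3 did not overlap (11.8%), counts that rest on few genes. Sirpa, which binds CD47 and restrains phagocytosis, had 261, 224 and 155 FPKM in Zeb1Prx1 and 273, 267 and 331 FPKM in WT libraries. All mutant libraries were below all WT libraries, by a narrow gap for replicate 1 (log2 change -0.47, limma adjusted p = 0.386; -0.26 without Zeb1Prx1 replicate 3). Cd84, a self-binding receptor of the SLAM family, had 24.2, 24.5 and 23.4 FPKM in Zeb1Prx1 and 33.2, 32.0 and 29.6 FPKM in WT libraries. Its mutant libraries lay close together and below WT, replicate 2 included (log2 change -0.38, SE 0.13, limma adjusted p = 0.294).

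Cd86, a costimulatory ligand of T cells, had a log2 change of -0.38 without overlap at levels of at most 5.61 FPKM. Pirb and Cd300a overlapped, at log2 changes of -0.49 and -0.069. Pirb shares 30.1% of its 75-base windows with Pira2 and related copies, so its level is uncertain to that extent.

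Of the lipid-associated genes, Apoe, the lipoprotein ligand that macrophages secrete, ranked 6 among all genes. It had 3035, 4510.1 and 1771 FPKM in Zeb1Prx1 and 2925, 3229 and 3750.5 FPKM in WT libraries. Each mutant library took a different place, with replicate 1 within the WT range, replicate 2 above it and replicate 3 below it (log2 change -0.18, SE 0.41, limma adjusted p = 0.834; -0.50 without Zeb1Prx1 replicate 2, 0.17 without replicate 3 and -0.087 without WT replicate 3). Gpnmb, a glycoprotein of lipid-laden phagocytes and of osteoclasts, had 183, 139 and 167 FPKM in Zeb1Prx1 and 248, 255 and 162 FPKM in WT libraries. WT replicate 3 lay among the mutant libraries, and the groups overlapped (log2 change -0.42, limma adjusted p = 0.405).

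Taken library by library, the mutant replicates differed. In Zeb1Prx1 replicate 1, 35 of 43 genes were below the WT range (25.2% of all tested genes) and 1 was above it (25.6%). In replicate 3, 30 were below (33.0%) and 2 were above (33.5%), and 27 were below in replicates 1 and 3 together (17.0%). In replicate 2, 20 were below (35.3%), 16 were above (39.9%) and 7 were within the WT range (24.8%), shares closer to those of all genes. With 1 FPKM added to both levels, the median log2 ratio of the 43 genes to the WT mean was -0.40, -0.13 and -0.45 in replicates 1, 2 and 3. Without that addition, which damps genes of low level, the SD of the log2 ratio over genes was 0.218, 0.801 and 0.517.

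In 9 of 43 genes, replicates 1 and 3 were below the WT range and replicate 2 was above it, as in 3.0% of all tested genes. These were Spi1, Cyba, Ncf4, C1qb, C1qc, Tyrobp, Fcer1g, Trem2 and Clec4e, with principal transcripts of 564 to 2518 bases. The 16 genes above the WT range in replicate 2 had a median transcript length of 1246 bases, and the 20 below it had one of 3841.5 bases. Genes of like role could part in that library: of the oxidase pair, Cyba, at 744 bases, was above WT and Cybb, at 4752 bases, was below it. Cd68 and Clec7a were short and yet below WT.

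**Figure D3:**
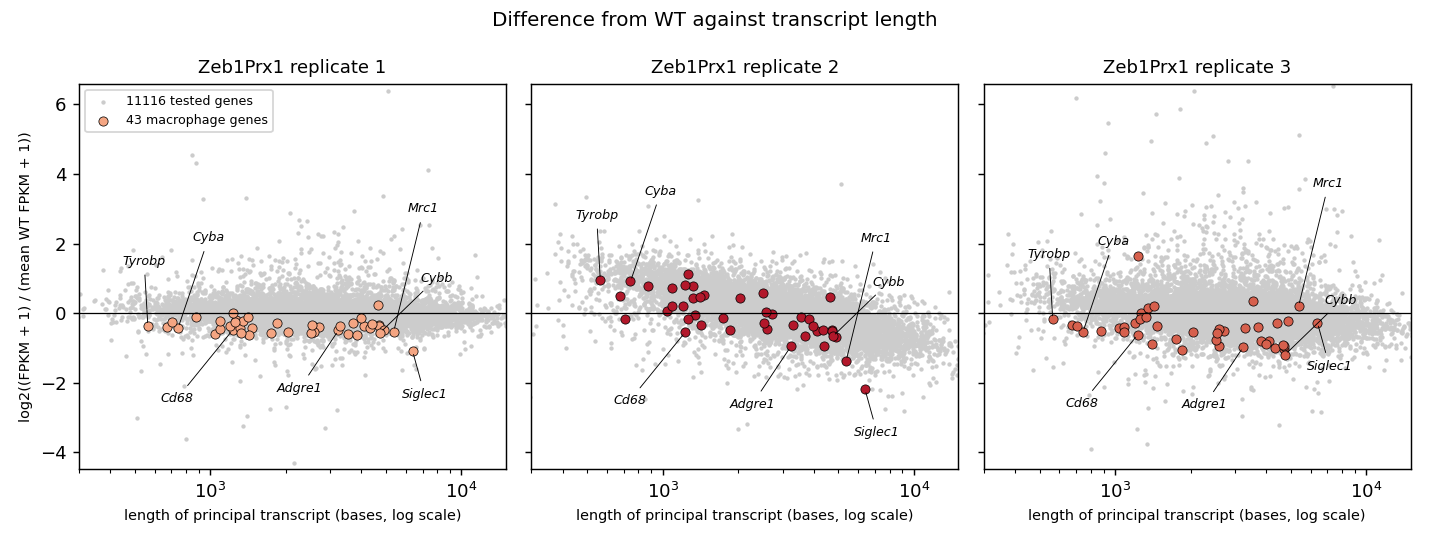
Log2 difference of each Zeb1Prx1 library from the WT mean (vertical axis) against the length of the principal transcript (horizontal log axis), for 11116 tested genes with a known length (grey) and the 43 macrophage genes (coloured). In replicate 2 both fall with length, at a Spearman correlation of -0.72 over the macrophage genes; the few genes beyond the axes are not drawn.

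The relation to length was common to the whole table. Across genes, which are not independent replicates, Spearman's correlation of the log2 ratio with principal transcript length was -0.20, -0.72 and -0.33 in replicates 1, 2 and 3 for the 43 macrophage genes, and -0.16, -0.70 and -0.34 for 11116 tested genes with a known length. In replicate 2, 14 of the 22 shorter macrophage genes (up to 2034 bases) were above the WT range, where 78.6% of all genes of such length were. Their median log2 ratio was 0.43, against 0.57 for all shorter genes. Of the 21 longer macrophage genes, 15 were below the WT range, where 47.5% of all longer genes were, and the medians were -0.48 and -0.16.

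By these medians, both length classes of macrophage genes lay below other genes of like length in replicate 2. With the length trend removed from each library, an alternative chosen after seeing the data, 27 of 43 genes were below the WT range in replicate 2 (31.5% of all genes) and 3 were above it (32.6%). In the same setting, 34 were below in replicate 1 (24.4%) and 31 in replicate 3 (31.5%), and 19 did not overlap between the genotypes (10.3%). The median log2 change was -0.43, and at an unadjusted p under 0.05, 17 of 43 were lower (6.42% of all genes), but 0 were called by limma after adjustment. Signs of Lyz2 and Tyrobp were then negative, at -0.19 and -0.45.

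Without Zeb1Prx1 replicate 2, 42 of 43 genes had a log2 change below 0 (50.0% of all genes), Clec4n being the exception at 1.00, and the median was -0.42. The genotypes then did not overlap for the 27 genes given above. At an unadjusted p under 0.05, 20 were lower (6.75% of all genes) and 0 were higher (7.35%), and limma called 0 after adjustment, with a smallest adjusted p of 0.302. Limma with library weights, which gave Zeb1Prx1 replicate 2 a weight of 0.226 and replicate 3 one of 2.82, called 6 of 43 lower (1.43% of all genes) and 0 higher (2.14%). The 6 were Adgre1, Cybb, Plek, Ptprc, Cd53 and Mpeg1, at adjusted p between 0.0463 and 0.0498, all close to the threshold and all lost with equal weights.

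**Figure D4:**
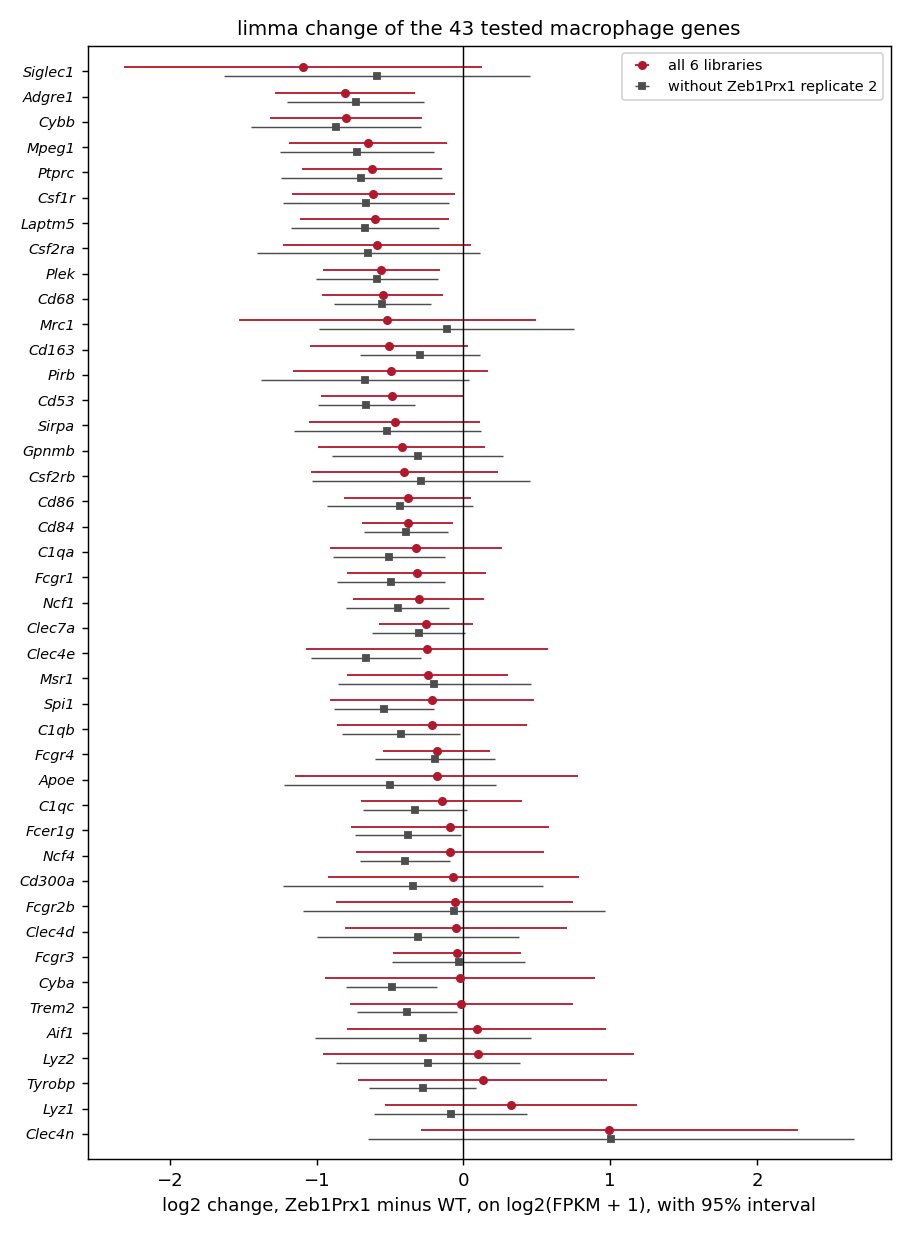
Limma log2 change with its 95% interval, Zeb1Prx1 minus WT on log2(FPKM + 1), for the 43 tested macrophage genes, with all 6 libraries (circles) and without Zeb1Prx1 replicate 2 (squares). With all libraries 38 of 43 lie below 0, and without replicate 2 42 of 43 do, Clec4n being the exception.

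Other genes of the same biology had like values, and 0 genes of these lists were called. Of 42 further macrophage and myeloid surface genes, 34 were tested, 28 had a log2 change below 0 (48.1% of all genes) and 13 did not overlap on the lower side (11.8%), with a median of -0.35. The complement receptor genes C3ar1 and C5ar1 were examples: C3ar1 had 88.5, 80.4 and 59.7 FPKM in Zeb1Prx1 and 119, 137 and 136 FPKM in WT libraries (log2 change -0.79, limma adjusted p = 0.264). C5ar1 had 60.1, 61.0 and 41.3 FPKM in Zeb1Prx1 and 131, 79.7 and 96.7 FPKM in WT libraries. Replicate 2 was below WT with the others for both genes.

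Downstream of the ITAM and ITIM receptors, 22 of 23 tested signalling genes had a log2 change below 0 (48.1% of all genes) and 12 did not overlap on the lower side (11.8%), with a median of -0.36. Syk, the kinase that binds phosphorylated ITAMs, had 21.1, 17.6 and 13.8 FPKM in Zeb1Prx1 and 24.4, 29.8 and 25.8 FPKM in WT libraries (log2 change -0.59, limma adjusted p = 0.278). The groups did not overlap for Syk, in contrast to the adaptors Tyrobp and Fcer1g that recruit it. Its principal transcript has 5363 bases, against 564 for Tyrobp and 674 for Fcer1g. The phosphoinositide 3-kinase genes Pik3cd and Pik3ap1 had log2 changes of -0.74 and -1.13 without overlap.

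Among myeloid transcription factors other than Spi1, 14 of 20 tested had a log2 change below 0 (48.1% of all genes), with a median of -0.24. On the lower side 7 did not overlap (11.8% of all genes). Ikzf1, the lymphoid and myeloid regulator Ikaros, had 9.44, 8.86 and 5.95 FPKM in Zeb1Prx1 and 13.2, 13.1 and 13.3 FPKM in WT libraries. The groups did not overlap for it (log2 change -0.67). Of lipid-handling genes, 13 of 17 tested were below 0 (48.1% of all genes) and 10 did not overlap on the lower side (11.8%), with a median of -0.46; Lipa, the lysosomal acid lipase, had 169, 141 and 119.8 FPKM in Zeb1Prx1 and 217, 215 and 239 FPKM in WT libraries. Of other NADPH oxidase genes, 5 of 5 tested were below 0 (48.1% of all genes) and all overlapped.

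The growth factors that act on these receptors did not separate the genotypes. Csf1, the ligand of Csf1r, had 63.9, 65.7 and 46.0 FPKM in Zeb1Prx1 and 107, 56.8 and 83.9 FPKM in WT libraries (log2 change -0.46, limma adjusted p = 0.416). Il34, its other ligand, had 2.60, 3.29 and 4.61 FPKM in Zeb1Prx1 and 2.62, 1.53 and 1.80 FPKM in WT libraries (log2 change 0.59, limma adjusted p = 0.305). Both overlapped. Of complement genes outside C1q, 5 of 14 tested were below 0 (48.1% of all genes), with a median of 0.38. On the lower side 3 did not overlap (11.8% of all genes) and on the higher side 1 (12.6%). Clu, clusterin, was the gene without overlap on the higher side, with 11.2, 7.88 and 250.1 FPKM in Zeb1Prx1 and 0.254, 2.80 and 6.75 FPKM in WT libraries. The size of its difference rested on Zeb1Prx1 replicate 3.

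Markers of neutrophils, lymphocytes, dendritic cells and mast cells were mostly low or absent, and some of the rest are genes that several cell types express. Neutrophil markers summed to 8.57 to 11.3 FPKM in Zeb1Prx1 and 10.7 to 13.4 FPKM in WT libraries, and 2 of 12 were tested, with S100a9, Ngp, Retnlg and Cxcr2 at 0 in all 6. T and NK cell markers summed to 0.656 to 1.98 FPKM in Zeb1Prx1 and 1.57 to 2.30 FPKM in WT libraries, with Ncr1 and Gzma at 0. B cell markers summed to 2.01 to 2.35 FPKM in Zeb1Prx1 and 2.41 to 7.27 FPKM in WT libraries, with Pax5, Mzb1 and Blk at 0. Of the dendritic cell markers, Flt3 and Cd209a were at 0, Xcr1, Zbtb46 and Clec9a were under 1 FPKM, and the sum of 74.5 to 257 FPKM in Zeb1Prx1 and 100.5 to 140.2 FPKM in WT libraries came mainly from Bst2, which many cells express. Mast cell and basophil markers summed to 2.53 to 9.35 FPKM in Zeb1Prx1 and 2.20 to 9.57 FPKM in WT libraries, all but Mcpt8 being under 1 FPKM throughout, with Mcpt4, Ms4a2, Tpsb2 and Prss34 at 0.

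Monocyte markers summed to 384 to 1985 FPKM in Zeb1Prx1 and 735 to 1269 FPKM in WT libraries, nearly all of it Fn1 (fibronectin), which stromal cells express. Of the 10 markers, 4 were under 1 FPKM in all 6 libraries, Ly6c2, Chil3 and Ace among them. Of 5 tested, 4 had a log2 change below 0 (48.1% of all genes), with a median of -0.35. On the lower side 0 were without overlap (11.8% of all genes) and on the higher side 0 (12.6%). The part of monocyte markers in the values of macrophage genes was not tested. Osteoclast markers summed to 151 to 192 FPKM in Zeb1Prx1 and 162 to 184 FPKM in WT libraries, with Ocstamp, Dcstamp, Calcr, Oscar and Car2 under 1 FPKM. Of 8 osteoclast markers tested, 6 had a log2 change below 0 (48.1% of all genes), with a median of -0.35 and 0 called. On the lower side 3 did not overlap (11.8% of all genes) and on the higher side 1 (12.6%). Tnfrsf11a, which encodes the receptor RANK on osteoclast precursors, had 8.67, 6.65 and 5.52 FPKM in Zeb1Prx1 and 11.9, 10.7 and 12.4 FPKM in WT libraries. Ctsk, encoding the collagen-cleaving protease cathepsin K, had 49.0, 66.2 and 56.1 FPKM in Zeb1Prx1 and 27.6, 39.1 and 35.5 FPKM in WT libraries. These 2 genes were thus free of overlap in opposite directions, and the part of osteoclast markers in the values of macrophage genes was not tested. Erythroid and megakaryocyte markers summed to 33.7 to 124 FPKM in Zeb1Prx1 and 23.8 to 47.7 FPKM in WT libraries, mostly Pf4, with Hba-a1, Hba-a2, Hbb-bt, Car1 and Gp9 at 0. Of 2 tested, 0 had a log2 change below 0 (48.1% of all genes) and 1 was without overlap on the higher side (12.6%), with a median of 1.01. These counts rest on few genes and are not read as a result. Endothelial markers summed to 11.9 to 19.7 FPKM in Zeb1Prx1 and 21.4 to 27.7 FPKM in WT libraries, with Cldn5 at 0 and Pecam1, Cdh5 and Kdr under 1 FPKM. These last sums did not overlap, most of each being Eng, which the stromal list holds too, and their part in the values of macrophage genes was not tested.

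Skeletal genes differed between lists. Prx1-lineage stromal genes summed to 3490 to 6220 FPKM in Zeb1Prx1 and 2650 to 3796 FPKM in WT libraries. Of 18 tested, 7 were below 0 (48.1% of all genes), with a median log2 change of 0.14. On the lower side 2 were without overlap (11.8% of all genes) and on the higher side 1 (12.6%). Osteoblast genes summed to 4969 to 6192 FPKM in Zeb1Prx1 and 3282 to 5994 FPKM in WT libraries. Of 9 tested, 1 was below 0 (48.1% of all genes) and 2 were without overlap on the higher side (12.6%), with a median of 0.70. Chondrocyte genes summed to 202 to 2620 FPKM in Zeb1Prx1 and 35.0 to 235 FPKM in WT libraries. Of 8 tested, 0 were below 0 (48.1% of all genes) and 5 were without overlap on the higher side (12.6%), with a median of 2.14. The median level of the 15 chondrocyte genes was 1.47, 1.28 and 17.6 FPKM in Zeb1Prx1 and 0.287, 0.343 and 0.270 FPKM in WT libraries. Genes at such levels can pass the filter through the Zeb1Prx1 libraries alone, which fixes their direction and lack of overlap in advance. The counts of this list are therefore no separate result. Limma called 0 genes of these 3 lists. Their part in the values of macrophage genes was not tested.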

How the data were processed

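Bulk RNA-seq of 6 libraries (3 Zeb1Prx1 and 3 WT) was analysed from 1 table of FPKM, computed and deposited by the authors, which also lists each gene's name, position and length per the file headers. Per the submitters' processing notes, mm10 was the genome build. Neither the aligner nor the counter, nor whether it used strand, is given in the sources used here; overlapping genes and close copies may therefore share fragments.

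Limma 3.58.1 (R 4.3.3) was fitted with a trend of variance on mean to log2(FPKM + 1) of the 12534 genes that had at least 1 FPKM in at least 3 libraries, as Zeb1Prx1 minus WT with no covariate. P-values were adjusted by Benjamini-Hochberg over all of these genes, and the threshold was 0.05. The pseudocount of 1 shrinks fold changes of low genes. The procedure was tested on simulated data. The simulated counts had the same dispersion in all libraries, with no length trend and no outlying library. They therefore do not show how well the procedure finds changes in these libraries. Since all 127408 non-zero values, times gene length, were whole multiples of a library's smallest step (relative tolerance 1e-06), fragment numbers could be recovered; they summed to 14724357 to 18354894 a library and were used for voom and depth, with limits that cover counting error only. Libraries of 1 genotype differed beyond sampling noise (chi-square per degree of freedom 33.9 to 162). Transcript lengths came from GENCODE M21 and promoters from RefSeq (GRCm38.p6).

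The 44 genes, their roles and the other gene lists were chosen with earlier results of these data known. Values in each library were given for Adgre1, Csf1r and Cd68, for the member of each role with the highest mean FPKM and the one with the smallest unadjusted p, for the 3 furthest above and the 3 furthest below WT in Zeb1Prx1 replicate 2, for up to 4 genes of each other list with the smallest p, and for Zeb1; Spi1, Trem2 and Clec4n were added after their values were seen. Alternatives were a pseudocount of 0.1 or 0.5, testing every detected gene or those with a mean FPKM of 5 or more, scaling to an equal FPKM sum, by median of ratios or by quantiles, a block on replicate number, library weights, voom, leaving out each library, and removal of the transcript-length trend, which was chosen after seeing the data.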

Additional observations from a re-analysis of the deposited data

How the results depend on the processing

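With all 6 libraries at equal weight, 0 of 43 macrophage genes were called in either direction under pseudocounts of 0.1 and 0.5, both filters, all scalings, voom and removal of the length trend. Library weights gave other counts. Limma then called 6 of the 43 genes lower and 0 higher. Over the whole table it called 447 genes, 179 lower (1.43% of all genes) and 268 higher (2.14%). It also called 21 genes of the other fixed lists. Their direction and the number tested are not given for this setting, so the 21 cannot be set against those shares. With these weights Zeb1 had a log2 change of -1.34 and passed (limma adjusted p = 0.042). Under the alternatives that kept all libraries, between 36 and 41 genes had a log2 change below 0, their median lay between -0.47 and -0.28, and between 12 and 19 did not overlap. The 41 and the median of -0.47 came from an equal FPKM sum, where 63.4% of all genes were below 0, with a median of -0.12. The 36 were of 40 genes with a mean FPKM of 5 or more (45.3% of all genes). With the length trend removed, 19 did not overlap (10.3% of all genes). Such shares were not computed for the scalings. The sign of Lyz2 turned with an equal FPKM sum (-0.069), library weights (-0.10) and the length trend removed (-0.19). The sign of Tyrobp turned with an equal FPKM sum (-0.039), quantile scaling (-0.18), library weights (-0.17) and the length trend removed (-0.45), and that of Fcgr3 with library weights (0.078). Over the alternatives that kept all libraries, the log2 change lay between -0.57 and -0.21 for C1qb, -0.69 and -0.32 for C1qa, -1.17 and -0.33 for Cd163, and -0.83 and -0.37 for Sirpa. The cause was not tested.

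Leaving out each library in turn, the genes below 0 numbered between 31 and 42, the median log2 change lay between -0.42 and -0.22, between 14 and 27 genes did not overlap (27 without Zeb1Prx1 replicate 2), genes called over the whole table numbered between 0 and 1, and the Zeb1 change lay between -1.69 and -1.36. The 31 were found without Zeb1Prx1 replicate 1 (47.9% of all genes below 0) and the 42 without replicate 2 (50.0%). For the 27 without overlap, the share of all tested genes was 17.0%. Other shares without overlap were not computed for these fits. An arm left with fewer libraries borrows its spread from the others. Over these fits the log2 change lay between -0.24 and 0.37 for Lyz2, -0.088 and 0.58 for Lyz1, -0.49 and 0.24 for Cyba, -0.38 and 0.066 for Fcer1g, -0.28 and 0.38 for Tyrobp, -0.14 and 0.058 for Fcgr3, -0.31 and 0.19 for Clec4d, and -0.50 and 0.17 for Apoe.

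With the replicate number as a block, 0 members were called, 38 were below 0 with a median of -0.30, and the Zeb1 change was -1.53 (limma adjusted p = 0.379). Deviations of same-numbered libraries correlated at 0.029, -0.413 and 0.080, and those of different-numbered libraries at between -0.481 and 0.457. These deviations are taken within 3 libraries a genotype and include the length trend of Zeb1Prx1 replicate 2. The correlations therefore cannot decide whether the numbers pair the libraries, and the labels do not say. With 3 libraries a genotype, differences of the size seen for most members did not pass; a p that misses the threshold does not show equal levels. Marco, Lyz1 and Cd163 rest on few fragments.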
